A study of Mus musculus with 6 samples.

Results

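Of the 54109 Ensembl gene IDs counted in a mouse Schwann cell line with and without Sox10, 64 belong to a set of Wnt pathway genes. They were chosen by symbol: every Wnt, Fzd, Sfrp, Dkk or Rspo name followed by a digit, together with 22 single genes of Wnt reception, beta-catenin turnover and transcription. By role the set holds 19 Wnt ligand genes, 15 receptor and co-receptor genes, 10 genes of secreted modulators, 10 of the R-spondin axis, 6 of the beta-catenin pool and its feedback, and 4 of the TCF/LEF nuclear factors. The symbol of Rspo4os, an antisense RNA gene, matches the pattern, and the gene is counted in the R-spondin axis. The RNA came from 6 cultures of Msc80. This is a cell line from mouse with Schwann cell character, Schwann cells being the glia of peripheral nerves. In 3 cultures the Sox10 gene was wild type (control), and in the other 3 it had been inactivated by CRISPR/Cas9 editing (Sox10ko). All 6 were grown in the same serum-containing medium without further treatment named in the labels. The Sox10ko cultures are described as a cell clone, and the labels do not say whether the 3 share a clone, so loss of Sox10 and a difference between clones cannot be told apart. Nothing in the labels says how far apart the replicate cultures were grown, and p-values measure the spread between these cultures only.

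Wnt proteins are secreted, lipid-modified ligands that bind Frizzled receptors. Together with the co-receptors Lrp5 and Lrp6, a bound Frizzled recruits Dishevelled and stops the destruction complex of Axin, Apc and kinases from marking beta-catenin (Ctnnb1) for degradation. Beta-catenin then enters the nucleus and joins the TCF/LEF factors on their target genes, several of which (Axin2, Nkd1, Nkd2, Notum, Rnf43, Znrf3) dampen the pathway again. Other routes through Ror, Ryk and planar polarity proteins act without beta-catenin. In the Schwann cell lineage, Wnt signalling is known from neural crest induction and from the onset of myelin gene expression.

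Levels are in CPM, counts scaled by library size with TMM factors, and the values of a group follow the order of its replicates 1, 2 and 3. A log2 fold change is that of Sox10ko relative to control, with its SE, and adjusted p-values come from edgeR's quasi-likelihood fit across all genes. Total counts ran from 32328618 to 41834431 reads per library. Sox10 fell from 617 ± 10.5 to 88.7 ± 25.1 CPM (SD, n = 3 each; log2 fold change -2.80 ± 0.20, adjusted p = 1.86e-04). All 12 listed Schwann cell markers were read in control, and their summed level ran from 5766 to 6349 CPM there and from 593 to 778 CPM in Sox10ko. Ngfr, the largest part of the control sum, averaged 2965 and 16.4 CPM. Of the 12, 10 were called lower. Ncam1 averaged 150.5 and 155.3 CPM and did not pass (adjusted p = 0.905), and neither did L1cam (369.5 and 235.1 CPM, adjusted p = 0.0769). The summed level of 8 smooth muscle and pericyte markers ran from 0.948 to 1.34 CPM in control and from 120 to 671 CPM in Sox10ko, most of it from Acta2. For 8 fibroblast markers it ran from 1180 to 1734 CPM and from 1103 to 2921 CPM, where Col1a1 rose 6.12-fold (adjusted p = 0.00577) and Pdgfra averaged 0.734 and 0.848 CPM. Col1a1 was the only call among the 4 fibroblast markers tested. Col6a3, most of the control sum, averaged 1123 and 871 CPM and did not pass (log2 fold change -0.37, adjusted p = 0.458). Col3a1 did not pass either (adjusted p = 0.0622). Neuronal markers summed to 89.5 to 101 CPM in control and 55.5 to 72.8 CPM in Sox10ko, with Rbfox3 at 0 reads. Most of that sum was Tubb3, which averaged 87.95 and 50.2 CPM (adjusted p = 0.0252). It was the only call among 5 tested neuronal markers, and the other 4 had positive log2 fold changes. The sums of the other lists were low but higher in every Sox10ko library than in any control library. Leukocyte markers summed to 6.23 to 8.08 CPM in control and 19.3 to 27.5 CPM in Sox10ko, where Lyz2 rose 12.7-fold and Cd68 3.47-fold, with Cd3e and Itgam at 0 reads. Csf1r, the other tested leukocyte marker and the largest part of the control sum, averaged 4.16 and 3.07 CPM. It did not pass (log2 fold change -0.435, adjusted p = 0.553). Endothelial markers summed to 3.54 to 4.66 and 19.8 to 56.1 CPM, where Vwf rose 16.7-fold. Cdh5, on the same list, fell 17.3-fold (adjusted p = 0.0143), and Pecam1 averaged 0.435 and 0.205 CPM and did not pass. Epithelial markers summed to 0.147 to 0.271 and 3.17 to 5.66 CPM, of which Krt14 averaged 0.0786 and 1.91 CPM. The part of these shifts in the Wnt results was not tested, and in RNA from whole cultures fewer cells of a type and less RNA per cell cannot be told apart.

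The low-count filter (0.249 CPM in at least 3 libraries) kept 31 members, each of which reached it in libraries of both groups. Rnf43, Ror1 and Dkk3 reached it in 2 of the 3 control libraries. The 33 members left out had at most 82 reads over the 6 libraries, and 8 of them had 0 (Wnt1, Wnt2, Wnt3a, Wnt9b, Fzd10, Ror2, Dkk4 and Nkd1). A count of 0 over a group allows a level of up to 0.0257 CPM in control and 0.0258 CPM in Sox10ko. Such floors, like the counting intervals given further on, cover counting error only.

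Among the 31 tested members, 14 were higher and 5 lower in Sox10ko (adjusted p under 0.05), so that 19 passed. Of all 15427 tested genes, 32.0% passed, 17.3% higher and 14.7% lower. The members' median log2 fold change was 0.50, beside 0.02 for all tested genes. The groups did not overlap for 20 members, 15 with Sox10ko above and 5 with it below, and for 49.3% of all tested genes. Over the 24 members with a mean of at least 5 CPM, 15 passed, against 33.1% of all genes at that level, and their median was 0.26. With 1 library left out at a time, between 11 and 15 members were higher. The count of lower members was 3 without control replicate 1 or 2 and 2 without control replicate 3, which also took the count over all genes from 4939 to 2869.

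**Figure D1:**
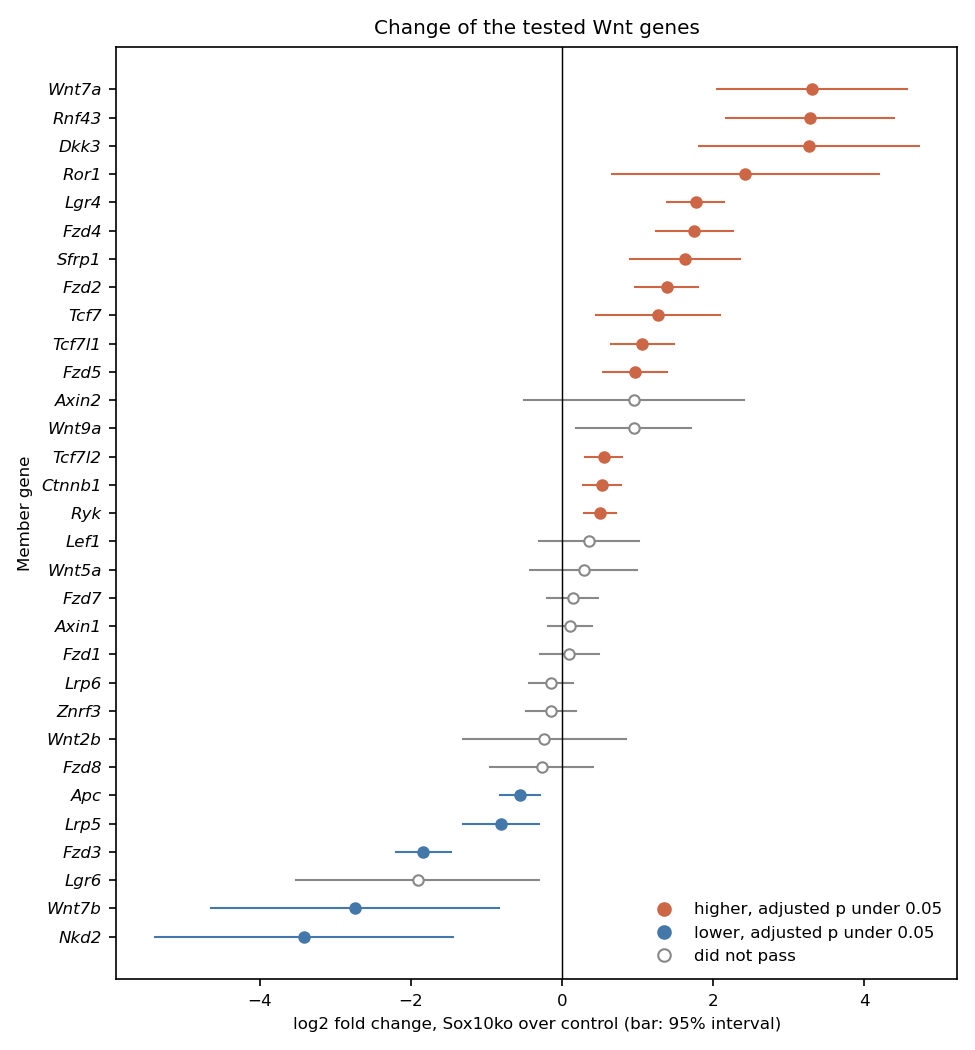
Log2 fold change of Sox10ko over control for the 31 tested Wnt genes, with the 95% interval of the fit as a bar. Filled points passed at an adjusted p under 0.05, 14 above 0 and 5 below it, and open points did not pass.

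The promoters of 12 of the 19 called members are in the RefSeq table of build GRCm38.p6, and those of 4 members are shown here. Wnt7a and Nkd2 are among the called members with a large rise and a large fall, and Tcf7l1 and Tcf7l2 are the called members whose window holds a SOX-type match. Each line gives the 250 bases before the annotated start, 5′ to 3′ on the gene's strand, with ACAAAG or ACAATG, read on either strand, in capitals.
Wnt7a (chr6:91411354-91411603, minus strand): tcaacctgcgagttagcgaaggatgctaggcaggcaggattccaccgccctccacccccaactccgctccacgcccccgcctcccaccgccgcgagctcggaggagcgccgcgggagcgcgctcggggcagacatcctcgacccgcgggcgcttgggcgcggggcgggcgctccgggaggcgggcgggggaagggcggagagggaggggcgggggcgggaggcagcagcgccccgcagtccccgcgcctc
Nkd2 (chr13:73847632-73847881, minus strand): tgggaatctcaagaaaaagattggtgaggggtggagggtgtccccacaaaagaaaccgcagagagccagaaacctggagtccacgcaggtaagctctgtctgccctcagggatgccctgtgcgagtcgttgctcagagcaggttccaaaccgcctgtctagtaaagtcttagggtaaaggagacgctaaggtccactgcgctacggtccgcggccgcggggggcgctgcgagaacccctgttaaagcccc
Tcf7l1 (chr6:72789046-72789295, minus strand): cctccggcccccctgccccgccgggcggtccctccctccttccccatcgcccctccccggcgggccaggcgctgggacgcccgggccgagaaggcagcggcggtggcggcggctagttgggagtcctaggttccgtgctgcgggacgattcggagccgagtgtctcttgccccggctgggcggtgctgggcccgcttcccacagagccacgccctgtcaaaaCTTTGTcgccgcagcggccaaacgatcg
Tcf7l2, the upstream of its 2 starts in the table (chr19:55741560-55741809, plus strand): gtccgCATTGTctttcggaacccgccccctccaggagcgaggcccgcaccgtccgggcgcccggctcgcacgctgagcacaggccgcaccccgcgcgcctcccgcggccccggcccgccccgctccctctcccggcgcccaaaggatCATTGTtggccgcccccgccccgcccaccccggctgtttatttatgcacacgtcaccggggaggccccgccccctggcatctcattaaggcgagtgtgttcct
ACAAAG or ACAATG was found in 13 of the 52 member promoters (25.0%) and in 25.2% of the 32851 promoters of the table. The TCF/LEF core TCAAAG, which differs from ACAAAG in its opening base, was found in 6 member promoters (11.5%) and in 13.8% of all. A match is a description of the letters in this window and not a binding site.

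Among the Wnt ligand genes, Wnt7b fell and Wnt7a rose in Sox10ko. Per kb of exon Wnt7b had the highest mean level in control and Wnt7a in Sox10ko, while in CPM, without regard to length, Wnt5a averaged 29.8 and Wnt7a 24.5 in Sox10ko. Wnt7a and Wnt7b encode closely related Wnt ligands. Wnt7b (ENSMUSG00000022382, chromosome 15, 85535437 to 85582473, minus strand, GRCm38) stood at 53.0, 59.9 and 48.9 CPM in control and at 1.20, 4.22 and 18.7 CPM in Sox10ko. The control cultures were close to each other, and the Sox10ko cultures all lay below them but far apart. Wnt7b fell 6.68-fold (log2 fold change -2.74 ± 0.81, adjusted p = 0.0384), or 19.6-fold without Sox10ko replicate 3. The call was lost without control replicate 1, 2 or 3 (adjusted p = 0.0847, 0.0907 and 0.0901) and without Sox10ko replicate 2 (adjusted p = 0.0904). An antisense RNA gene, AU022754, overlaps 324 exonic bases of Wnt7b and had 216 reads in control and 5 in Sox10ko. It reached the low-count filter in control libraries alone, so no test of it is given. Since the strand setting of the counting is not given in the sources used here, reads from that overlap cannot be told apart between the pair.

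Wnt7a (ENSMUSG00000030093, minus strand of chromosome 6 from 91363981 to 91411363) went the other way. It stood at 0.786, 4.36 and 2.25 CPM in control and at 25.3, 19.7 and 28.6 CPM in Sox10ko. Every Sox10ko culture was above every control culture, and it was the controls that differed most among themselves. Wnt7a rose 9.93-fold (log2 fold change 3.31 ± 0.54, adjusted p = 0.00386), or 15.9-fold without control replicate 2, and passed under each alternative tried.

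Per kb of exon, which allows levels of different genes to be compared, Wnt7b made up 69.0 ± 4.54% of the summed Wnt ligand level in control (SD, n = 3) and 10.0 ± 10.8% in Sox10ko. Wnt7a made up 4.87 ± 3.41% and 51.6 ± 8.24%. The sum over the 19 ligand genes was 16.5, 16.5 and 14.8 CPM per kb in control and 13.5, 14.5 and 17.1 CPM per kb in Sox10ko. The sums of the groups thus overlapped, while the shares of Wnt7b and of Wnt7a did not. The share of Wnt5a did overlap, at 11.5 to 25.1% in control and 17.0 to 33.4% in Sox10ko. Wnt5a, a ligand best known for signalling without beta-catenin, was the next ligand in control and in Sox10ko, at 3.12 ± 1.14 and 3.80 ± 0.978 CPM per kb. It did not pass (log2 fold change 0.29, 95% interval -0.42 to 0.99, adjusted p = 0.510). In control it lay above Wnt7a (0.776 ± 0.566) and Wnt9a (0.741 ± 0.109 CPM per kb), which did not differ beyond their spread.

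**Figure D2:**
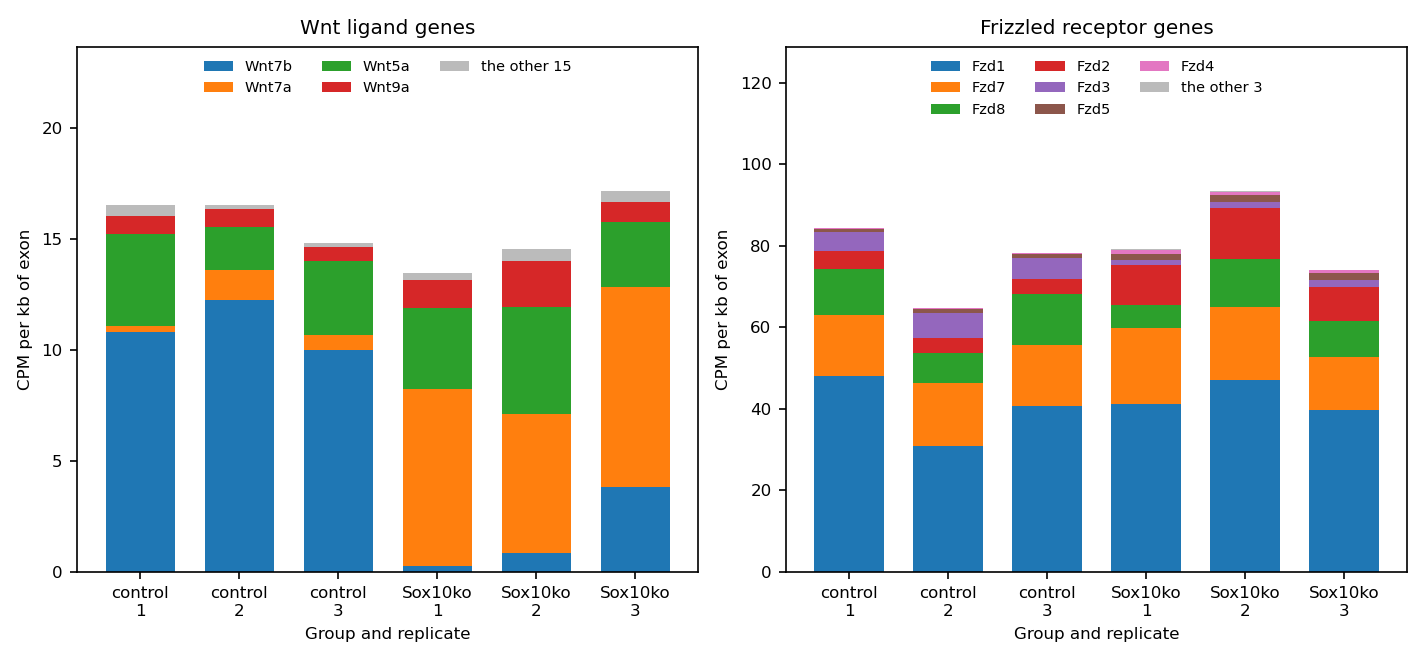
Summed levels in CPM per kb of exon in each library, stacked by gene, for the 19 Wnt ligand genes (left) and the 10 Frizzled genes (right). Wnt7b takes 69.0% of the ligand level in control and Wnt7a 51.6% in Sox10ko on average, while Fzd1 is the tallest Frizzled block in all 6 libraries.

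Wnt9a was read at 2.63, 2.72 and 2.05 CPM in control and at 4.25, 6.92 and 3.09 CPM in Sox10ko. The groups did not overlap, but the difference did not pass (log2 fold change 0.95 ± 0.33, adjusted p = 0.0626), except without Sox10ko replicate 3 (adjusted p = 0.0263) or with DESeq2 (adjusted p = 0.0296). Wnt2b was below 1 CPM on average in both groups (adjusted p = 0.737). The other 14 ligand genes were not tested. Among them, Wnt6 had 9 reads in control and 31 in Sox10ko, Wnt8b 21 and 19, and Wnt16 3 and 14, a ratio of 4.70 with an exact 95% counting interval of 1.31 to 25.5. The rest had at most 7 reads in a group.

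Several Wnt genes lie side by side in the genome. Wnt9a and Wnt3a are 16.2 kb apart on chromosome 11, and Wnt3a had 0 reads beside the 287 and 561 reads of Wnt9a in control and Sox10ko. Wnt6 and Wnt10a are 6.19 kb apart on chromosome 1, and Wnt10a had 0 and 2 reads. Of the pairs Wnt9b and Wnt3 (24.3 kb apart on chromosome 11) and Wnt10b and Wnt1 (11.7 kb apart on chromosome 15), no gene had more than 7 reads in a group, too few to compare them.

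Of 11 tested receptor and co-receptor genes, 5 rose and 2 fell (63.6% called, against 32.0% of all tested genes). The Frizzled genes that passed were Fzd2, Fzd3, Fzd4 and Fzd5, each of which was lower per length in control than Fzd1, Fzd7 and Fzd8. Fzd1 was the highest Frizzled per length, at 39.9 ± 8.62 CPM per kb in control and 42.7 ± 3.93 in Sox10ko, and made up 52.3% and 52.1% of the summed Frizzled level. Fzd7 followed at 15.0 ± 0.242 and 16.5 ± 3.06 CPM per kb, and Fzd8 at 10.5 ± 2.67 and 8.69 ± 3.04. None of these genes passed: the 95% interval of the log2 fold change was -0.29 to 0.49 for Fzd1, -0.20 to 0.47 for Fzd7 and -0.95 to 0.41 for Fzd8.

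Fzd3, a Frizzled of axon guidance and planar polarity, was the called Frizzled that fell. It stood at 61.8, 81.2 and 65.1 CPM in control and at 16.5, 19.5 and 22.2 CPM in Sox10ko. The groups were far apart and even within themselves (3.57-fold lower, log2 fold change -1.83 ± 0.16, adjusted p = 3.10e-04). Fzd3 lies on chromosome 14, whose tested genes had a median log2 fold change of -0.24, and its change was -1.56 with chromosome medians removed.

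Fzd2, Fzd4 and Fzd5 rose from lower levels. Fzd2 went from 16.4, 13.0 and 13.7 CPM in control to 36.2, 45.9 and 30.6 CPM in Sox10ko (2.62-fold, adjusted p = 0.00147). Fzd4, the receptor that also binds Norrin, went from 1.84, 1.97 and 1.49 CPM to 6.80, 5.59 and 5.53 CPM (3.37-fold, adjusted p = 0.00122). Fzd5 went from 4.80, 6.12 and 6.32 CPM to 10.0, 12.5 and 11.1 CPM (1.95-fold, adjusted p = 0.00676). In each of them all Sox10ko cultures lay above all control cultures. Per length the order in control was Fzd1, Fzd7, Fzd8, Fzd3, Fzd2, Fzd5 and Fzd4, and in Sox10ko Fzd2 (10.2 ± 2.12 CPM per kb) lay beside Fzd8 with no difference beyond their spread, and Fzd3 (1.52 ± 0.222) beside Fzd5 (1.62 ± 0.179). Fzd6, Fzd9 and Fzd10 had at most 3 reads in a group.

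Of the co-receptors, Lrp5 was lower in Sox10ko and Lrp6 did not pass. Lrp5 stood at 126, 112 and 109 CPM in control and at 44.0, 78.2 and 76.5 CPM in Sox10ko. It fell 1.75-fold (log2 fold change -0.80 ± 0.21, adjusted p = 0.0269), and the call was lost without control replicate 1, 2 or 3 (adjusted p = 0.0778, 0.0599 and 0.0654). Lrp6 was at 122 ± 17.0 and 111 ± 8.23 CPM (adjusted p = 0.432).

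Ryk, a Wnt receptor related to receptor tyrosine kinases, rose 1.41-fold, from 141, 130 and 137 CPM to 206, 185 and 184 CPM (adjusted p = 0.00627). Its Sox10ko cultures were the most even of the called receptors in CPM relative to their level. Ror1, a receptor for Wnt5a, was low in control (0.217, 0.359 and 0.317 CPM) and uneven in Sox10ko (0.959, 3.43 and 0.448 CPM). It rose 5.38-fold (adjusted p = 0.0448), or 2.31-fold without Sox10ko replicate 2, where the call was lost (adjusted p = 0.103). It was also lost without control replicate 1, 2 or 3 (adjusted p = 0.135, 0.104 and 0.129) and with limma-voom (adjusted p = 0.122). Its relative Ror2 had 0 reads in all 6 libraries.

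**Figure D3:**
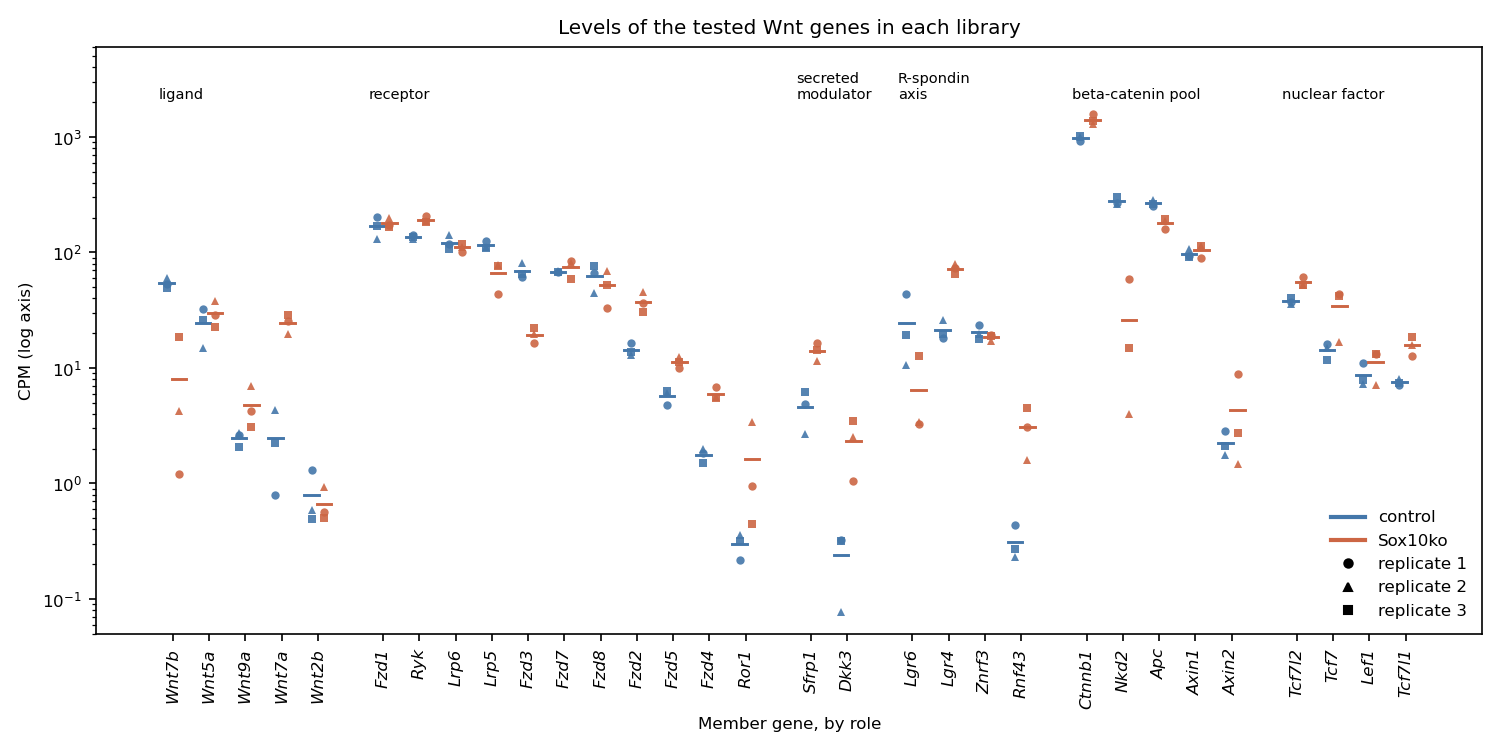
CPM on a log axis of the 31 tested Wnt genes in each library, by role, with a bar at each group's mean of 3 libraries. Wnt7b and Nkd2 lie high and close together in control and spread out in Sox10ko, and Wnt7a, Rnf43 and Dkk3 lie higher in every Sox10ko library than in any control library.

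Among secreted modulators, 2 of 10 were tested and both rose, where 17.3% of all tested genes were higher. Sfrp1, a decoy that binds Wnt proteins, went from 4.83, 2.69 and 6.13 CPM in control to 16.6, 11.6 and 14.3 CPM in Sox10ko (3.10-fold, adjusted p = 0.00733). Dkk3, the divergent member of the Dickkopf family, went from 0.325, 0.0768 and 0.317 CPM to 1.05, 2.51 and 3.44 CPM (9.64-fold, adjusted p = 0.00728). All Sox10ko cultures were above all control cultures for both genes. Dkk1, the best known inhibitor of Lrp5 and Lrp6, had 11 reads in control and 0 in Sox10ko, at least 3.64-fold lower against a floor of 3 counts over the group. It was below the low-count filter, and passed as lower with no filter (adjusted p = 0.0402).

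Notum, an enzyme that removes the lipid from Wnt proteins, had 2, 2 and 3 reads in control and 50, 13 and 5 in Sox10ko. Wif1, another Wnt-binding inhibitor, had 2, 0 and 2 reads and then 2, 65 and 11. Each of these genes had most of its Sox10ko reads in 1 culture, a different one for each. Both failed the low-count filter, and with DESeq2, which tested them, they passed (adjusted p = 0.00902 for Notum and 0.00978 for Wif1).

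In the R-spondin axis, the receptor gene Lgr4 and the ligase gene Rnf43 rose, and the other tested genes, Lgr6 and Znrf3, did not pass. R-spondins bind Lgr receptors and thereby remove the ubiquitin ligases Rnf43 and Znrf3, which take Frizzleds off the cell surface. Lgr4 (ENSMUSG00000050199, plus strand of chromosome 2 from 109917647 to 110014257) stood at 18.0, 26.0 and 19.7 CPM in control and at 73.4, 79.0 and 64.8 CPM in Sox10ko. Control and Sox10ko cultures were each close together and far from the other group (3.41-fold, log2 fold change 1.77 ± 0.16, adjusted p = 3.84e-04).

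Lgr6 had 43.5, 10.6 and 19.2 CPM in control and 3.29, 3.43 and 12.7 CPM in Sox10ko. Control replicate 2 lay below Sox10ko replicate 3, and the difference did not pass (log2 fold change -1.91 ± 0.69, adjusted p = 0.0712). The fold was 3.76, and it ran from 2.33 without control replicate 1 to 7.29 without Sox10ko replicate 3. Lgr6 passed in the latter case (adjusted p = 0.0181) and with no low-count filter (adjusted p = 0.0149). Lgr5 had 4 reads in control and 9 in Sox10ko.

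Rnf43 rose from 0.434, 0.231 and 0.269 CPM to 3.09, 1.60 and 4.49 CPM (9.77-fold, log2 fold change 3.29 ± 0.47, adjusted p = 0.00237), while Znrf3, the related ligase, was at 20.4 ± 2.90 and 18.4 ± 1.07 CPM and did not pass (adjusted p = 0.460). Per length Znrf3 stayed the higher of the pair, at 2.33 ± 0.136 CPM per kb in Sox10ko beside 0.466 ± 0.220 for Rnf43. Among the R-spondin genes, Rspo3 had 6 reads in control and 50 in Sox10ko, 39 of them in replicate 3. It was below the low-count filter and passed as higher with DESeq2 (adjusted p = 0.0348) and with no filter (adjusted p = 0.0275). Rspo1, Rspo2 and Rspo4 had at most 7 reads in a group. Rspo4os had 18 and 25 reads.

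In the beta-catenin pool, the gene of beta-catenin itself was higher and the destruction complex gene Apc lower. Ctnnb1, which also serves cell adhesion through cadherins, was the highest member per length and stood at 927, 993 and 1016 CPM in control and at 1572, 1296 and 1370 CPM in Sox10ko. It rose 1.44-fold (log2 fold change 0.53 ± 0.11, adjusted p = 0.0103), and the call was lost without control replicate 1 (adjusted p = 0.0532). Apc stood at 251, 283 and 263 CPM and at 158, 188 and 195 CPM (1.47-fold lower, adjusted p = 0.00925). Neither gene's groups overlapped. Axin1, the scaffold of the complex, was at 97.5 ± 8.88 and 105 ± 13.6 CPM and did not pass (95% interval of the log2 fold change -0.19 to 0.40, adjusted p = 0.560).

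Nkd2 (Naked cuticle 2, a Dishevelled-binding antagonist; ENSMUSG00000021567, minus strand of chromosome 13 from 73818534 to 73847631) fell. It stood at 267, 264 and 302 CPM in control and at 59.3, 4.01 and 15.0 CPM in Sox10ko. In control it was second to Ctnnb1 among all members per length, at 57.5 ± 4.35 CPM per kb. The change was 10.7-fold (log2 fold change -3.42 ± 0.84, adjusted p = 0.0200), or 29.4-fold without Sox10ko replicate 1. The call was lost without control replicate 3 (adjusted p = 0.0616) or Sox10ko replicate 3 (adjusted p = 0.0589), with log2 fold changes of -3.37 and -3.15. Its relative Nkd1 had 0 reads in all 6 libraries.

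Axin2, the feedback gene most often used to read out beta-catenin signalling, had 2.82, 1.77 and 2.12 CPM in control and 8.87, 1.48 and 2.72 CPM in Sox10ko. Sox10ko replicate 1 alone lay above the controls. The difference did not pass (log2 fold change 0.95 ± 0.62, adjusted p = 0.281), and without Sox10ko replicate 1 it was -0.10. Notum also had the most reads of any culture in that replicate. Of the Sox10ko cultures it held, in a comparison chosen after the values were seen, the most Nkd2 and the least Wnt7b, Apc and Lrp5. The level of Sox10 there (82.3 CPM) lay between those of replicates 2 and 3 (67.5 and 116 CPM).

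The TCF/LEF factors, which carry beta-catenin on DNA, were higher as far as they passed: 3 of 4 rose and 0 fell. Of all tested genes, 17.3% were higher. Tcf7l1, known mainly as a repressor, went from 7.08, 8.07 and 7.37 CPM in control to 12.6, 15.9 and 18.5 CPM in Sox10ko (2.09-fold, adjusted p = 0.00431). Tcf7l2 went from 37.3, 35.9 and 39.9 CPM to 61.3, 52.7 and 51.9 CPM (1.47-fold, adjusted p = 0.00746). The promoters of both, printed above, hold ACAAAG or ACAATG, and so does a promoter window of Lef1, which did not pass. Such a match was found in 3 of 15 promoters of members higher in Sox10ko (20%). Among promoters of tested members that did not pass, it was found in 4 of 10 (40%). Tcf7 stood at 16.2, 14.8 and 11.7 CPM in control and at 44.0, 16.9 and 42.1 CPM in Sox10ko, where replicate 2 was close to the controls.

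Tcf7 rose 2.42-fold (adjusted p = 0.0293), a call that was lost without control replicate 1, 2 or 3 (adjusted p = 0.0707, 0.0820 and 0.114) and without Sox10ko replicate 1 or 3 (adjusted p = 0.0762 and 0.0776). With limma-voom it was lost as well (adjusted p = 0.0623). Lef1 was at 8.73 ± 2.06 and 11.2 ± 3.46 CPM and did not pass (adjusted p = 0.379). Per length Tcf7 was the highest of the family in both groups, at 5.41 ± 0.884 and 13.1 ± 5.76 CPM per kb, followed by Tcf7l2, Tcf7l1 and Lef1. In control replicate 3, Tcf7l2 made up 38.7% of the summed TCF/LEF level and Tcf7 37.7%, so that the order of the pair did not hold in every control culture.

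Other genes of the pathway, listed by where they act, changed in both directions. Of the 84 tested genes on 4 such lists, 18 were higher and 19 lower in Sox10ko, 44.0% against 32.0% of all tested genes, with a median log2 fold change of 0.07. The count of higher genes was 10 without control replicate 3.

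Among 16 tested genes of Wnt secretion and reception, 5 rose and 6 fell (68.8% called, against 32.0% of all tested genes). Trabd2b, a protease that inactivates Wnt proteins, stood at 179, 135 and 173 CPM in control and at 38.6, 29.2 and 51.0 CPM in Sox10ko (4.11-fold lower, adjusted p = 7.10e-04). Draxin fell 5.90-fold and Tpbg 1.74-fold. Of the 11 calls, 3 are of genes that reached the low-count filter in 1 group alone, so their difference was favoured by the filter, and the 18 and 19 above include them. Ndp (Norrin) had 14 reads in each control library and 1 read in Sox10ko, Musk had 58 and 3, and Sost, an inhibitor of Lrp5 and Lrp6, had 0 in control and 25, 33 and 64 in Sox10ko. In the other direction, the glypican gene Gpc4 stood at 23.3, 24.8 and 18.8 CPM and at 96.7, 134 and 98.2 CPM (4.91-fold higher, adjusted p = 2.08e-04), and the surface inhibitor Apcdd1 rose 5.93-fold.

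Of 27 tested genes of the Dishevelled proteins and the destruction complex, 2 were higher and 4 lower (22.2%, against 32.0% of all tested genes). Dact3, a Dishevelled-binding inhibitor, fell 2.02-fold (adjusted p = 0.00220). Its relative Dact1 rose 2.84-fold (adjusted p = 0.01015), a call kept in 5 of 6 fits with 1 library left out. Without control replicate 3 the list had 0 higher and 2 lower. Of 20 nuclear cofactors, 5 were higher and 5 lower (3 higher without control replicate 1 or 3). The related cofactor genes Bcl9l and Bcl9 went apart, the former 2.14-fold higher and the latter 1.56-fold lower. Pygo1 rose 3.29-fold, from 5.75, 8.02 and 4.15 CPM to 20.0, 21.3 and 17.7 CPM. Its relative Pygo2 averaged 98.3 CPM in control and 68.2 CPM in Sox10ko and fell 1.44-fold (adjusted p = 0.0137). The corepressor gene Tle3 fell 2.46-fold (adjusted p = 6.61e-04). Tle1, of the same family, rose 1.81-fold (adjusted p = 0.0283), a call kept in 3 of 6 fits with 1 library left out. Tle2 and Tle4 did not pass.

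Of 21 tested genes of planar polarity and other routes without beta-catenin, 6 rose and 4 fell (47.6%, against 32.0% of all tested genes). There were 2 higher without control replicate 1 or 3, 3 without Sox10ko replicate 3, and 2 lower without control replicate 3. Of the 3 Prickle genes on the list, which encode cytoplasmic planar polarity proteins, Prickle1 fell, Prickle2 rose, and Prickle3 did not pass (log2 fold change 0.93, adjusted p = 0.136). Prickle1 stood at 1.17, 17.7 and 11.0 CPM in control and at 0.210, 0.422 and 0.125 CPM in Sox10ko (38.5-fold lower, adjusted p = 0.00804). Prickle2 stood at 0.271, 0.436 and 0.269 CPM and at 18.0, 17.1 and 12.8 CPM (48.7-fold higher, adjusted p = 5.32e-05). Control replicate 1 held little Prickle1, and the fall was 23.8-fold without control replicate 2 and 59.9-fold without Sox10ko replicate 2. The Prickle1 call was lost with limma-voom (adjusted p = 0.0714). Camk2d fell 1.55-fold and the phospholipase gene Plcb4 rose 10.4-fold.

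**Figure D4:**
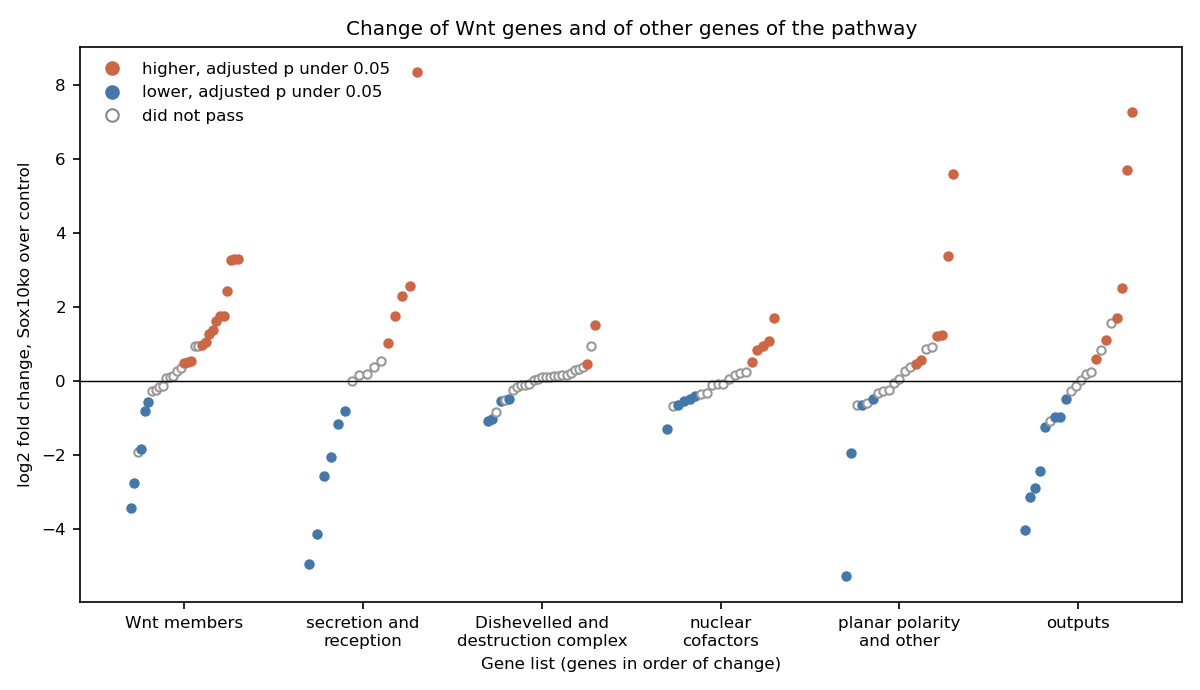
Log2 fold change of Sox10ko over control for each tested gene of the Wnt members, of 4 lists of other pathway genes and of the output list, in order of change within a list. Filled points passed at an adjusted p under 0.05, and every list holds called genes on both sides of 0.

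Genes often taken as transcriptional outputs of beta-catenin did not move as a block: of 22 tested, 6 were higher and 8 lower (63.6% called, against 32.0% of all tested genes), with a median log2 fold change of -0.05. Many of them answer to other signals as well. Ephb2 stood at 18.9, 18.9 and 23.9 CPM in control and at 2.07, 2.75 and 2.27 CPM in Sox10ko (8.69-fold lower, adjusted p = 1.00e-04). Cd44 fell 2.34-fold. Tnfrsf19 fell 16.2-fold, or 26.7-fold without Sox10ko replicate 1, and the Notch ligand gene Jag1 5.35-fold, or 3.45-fold without control replicate 1.

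In the opposite direction among the outputs, both matricellular genes of the Ccn family that were listed rose. Ccn4 stood at 47.7, 51.2 and 43.9 CPM in control and at 278, 221 and 316 CPM in Sox10ko (5.70-fold, adjusted p = 1.00e-04). Ccn5 stood at 0.407, 0.820 and 0.806 CPM and at 176, 35.6 and 106 CPM (155-fold, or 103-fold without Sox10ko replicate 1). Among the members that serve as outputs, Rnf43 and Tcf7 rose, Nkd2 fell, Axin2, Lef1 and Znrf3 did not pass, and Lgr5, Nkd1 and Notum were not tested. Sp5, another output, had 0 reads in all 6 libraries.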

How the data were processed

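Messenger RNA of 3 control and 3 Sox10ko cultures was sequenced, and the authors deposited raw read counts per Ensembl gene ID, 1 table per library. The tools DESeq2, HTSeq and STAR (2.6.0c) and the builds mm10 and GRCm38 are named per the submitters' processing notes. How each was applied, with which annotation, strand setting or filter, is not given in the sources used here. Libraries were made with a stranded kit, per the labels' protocols. Counts are not corrected for gene length.

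A table of gene names gave symbols for 54042 of 54109 IDs, and GENCODE M21 (GRCm38) gave coordinates and exon lengths. All replicate pairs differed by more than sampling noise (chi-square per degree of freedom of 24.7 or more). Counts were filtered with filterByExpr, scaled with TMM and tested with the quasi-likelihood F test of edgeR 4.0.16 (R 4.3.3), two-sided, with Benjamini-Hochberg adjustment over 15427 genes, all 6 libraries and no covariate. The step was tested on simulated data. Intervals are at 95%. Alternatives were DESeq2 size factors, library size alone, DESeq2 1.42.0, no filter, genes averaging 5 CPM or more, voom of limma 3.58.1, a replicate block and each library left out, with the removal of chromosome medians per library added after seeing the data. The members, gene lists and tests were chosen with earlier results of these data known. Every tested member is named, and list genes came from those with the lowest adjusted p, up to 5 in the direction with more calls and 2 in the other. Not all of these are described: most whose call was lost with a library left out were dropped after their values were seen. The output gene Nrcam (7.3-fold lower) and the nuclear cofactor gene Tbl1xr1 (1.44-fold higher) kept their calls and are not described above either. Pygo2 was not chosen in this way and was added beside its relative Pygo1. Promoters came from RefSeq (GRCm38.p6), which held 42 of the 64 members.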

Additional observations from a re-analysis of the deposited data

How the results depend on the processing

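Of the 19 called members, 13 passed with the same direction under each of the 14 alternatives that tested them. Lrp5, Ror1, Tcf7, Wnt7b, Nkd2 and Ctnnb1 lost the call under at least 1, in each case with the same direction. Direction changed only for members that did not pass: Axin1 was at -0.027 with chromosome medians removed, and with 1 library left out Axin2 ranged from -0.099 (without Sox10ko replicate 1) to 1.36, Fzd1 from -0.074 (without control replicate 2) to 0.232, and Wnt2b from -0.574 to 0.294 (without control replicate 1). The median of the members was 0.91 with no filter, 0.26 over genes averaging 5 CPM or more, and 0.73 with DESeq2, and 0.38 to 0.54 with 1 library left out. With no filter, 17 of 56 members were higher and 7 lower, beside 2947 higher and 2498 lower of all 31218 genes tested. There, 4 modulators were higher and 1 lower, and 1 R-spondin axis gene was lower. With DESeq2, 18 of 42 members were higher and 5 lower, beside 3098 higher and 2723 lower of all 20263 genes tested. Among the higher members were 4 modulators and 2 ligands. Over genes averaging 5 CPM or more, 1820 of all 10238 genes tested were higher and 1569 lower. At that level 3 receptors, 1 modulator and 1 R-spondin axis gene were higher, and 3 genes of secretion and reception were lower. The cause was not tested beyond the number of genes each filter leaves.

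Deviations from the group means of same-numbered cultures correlated at -0.12, -0.04 and 0.04 for numbers 1, 2 and 3, and not every culture correlated best with its own number. With 3 cultures per group, such values cannot show whether the replicate numbers pair the cultures. With the replicate block, 3537 genes passed in all, 12 members were higher and 4 lower, 1 receptor was lower, and 3 nuclear cofactors were lower and 3 planar polarity genes higher. Of the members, Lrp5, Ror1 and Tcf7 lost the call under the block (adjusted p = 0.0520, 0.0653 and 0.0584).

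With 1 library left out, all genes gave 1523 to 2531 higher and 1346 to 2188 lower, members 2 to 5 lower, ligands 1 to 2 higher and 0 to 1 lower, receptors 1 to 2 lower, R-spondin axis genes 0 to 1 lower, and the beta-catenin pool 0 to 1 higher and 1 to 2 lower. Modulators had 2 to 3 higher. Dishevelled and destruction complex genes had 0 to 2 higher and 2 to 4 lower, nuclear cofactors 3 to 5 higher, planar polarity genes 2 to 5 higher and 2 to 4 lower, and the 4 lists together 10 to 18 higher. The low-count filter left 33 members untested, 8 of which had 0 reads in all 6 libraries. DESeq2 tested 42 of the 64 and the fit with no filter 56.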
